A study of Mus musculus with 6 samples.

Results

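PML nuclear bodies are small spherical structures of the cell nucleus, and the genes described here encode their scaffold, the SP100 family of nuclear body proteins, the histone chaperone DAXX, and a pair of interferon-induced proteins that bind each other. They are the 7 mouse genes Pml, Sp100, Sp110, Sp140, Daxx, Nmi and Ifi35, listed by name with earlier results of these data known, and each matched 1 row of a table of 55359 genes. The cells were myeloid-derived suppressor cells (MDSCs), immature myeloid cells that restrain T cells, grown from C57BL/6 bone marrow for 4 days with GM-CSF and IL-6 at 40 ng/ml each. The polymorphonuclear fraction was taken with a commercial kit and re-seeded, and the mouse's age and sex are not given in the labels. In the mtDNA group (3 libraries) mitochondrial DNA was transfected with a lipid reagent at 250 ng/ml, and in the blank group (3 libraries) it was not. RNA was taken at 12 h from both groups. Whether the reagent was also added to blank cells is not stated, and no group received another DNA, so an effect of mtDNA cannot be told apart from one of the reagent or of any transfected DNA. Separate mice or cultures are not stated for the libraries either, and the p-values below therefore reflect spread among libraries that may be technical.

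PML, a protein of the tripartite motif family, builds the shell of the body, and its modification with the small protein SUMO recruits partners such as SP100 and DAXX. The SP100 family (SP100, SP110 and SP140) are nuclear proteins with domains that bind chromatin, and SP100 is a constant component of the bodies. NMI and IFI35 lie mainly outside the bodies, in the cytoplasm, and form a complex with each other. Genes of this group are known as targets of interferon, and the bodies are known for restraining incoming viral DNA.

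Library totals ranged from 4144481 to 4911103 counts in mtDNA libraries and from 4018360 to 4796800 in blank libraries, so that 1 read was worth 0.204 to 0.249 CPM (counts scaled to the size of the library). All CPM below are scaled between libraries by edgeR's TMM factors. The 12 neutrophil markers checked all had reads and 1 was called higher, with a summed level of 8185 to 8818 CPM in mtDNA libraries against 7838 to 8258 CPM in blank libraries. The 9 markers of monocytes and macrophages summed to 4400 to 4622 CPM in mtDNA libraries against 3635 to 3790 CPM in blank libraries, and 6 of the 9 passed the test as higher. The 5 markers of basophils and mast cells, 1 of them called higher, summed to 180 to 201 CPM in mtDNA libraries against 160 to 168 CPM in blank libraries. The 7 markers of B cells, which are known to express Sp140, summed to 40.2 to 44.0 CPM in mtDNA libraries against 36.7 to 42.0 CPM in blank libraries, and edgeR called 0 of the 5 tested. The 8 markers of T and NK cells summed to 7.71 to 9.95 CPM in mtDNA libraries against 6.59 to 11.4 CPM in blank libraries. Of these 8, 7 had reads, Ncr1 was at 0 in all libraries, and edgeR called 0 of the 2 tested. The 7 markers of dendritic cells summed to 450 to 454 CPM in mtDNA libraries against 444 to 449 CPM in blank libraries, with 0 of 4 tested called. The part of these cell types in the results was not tested, and in bulk RNA fewer cells of a type and less RNA per cell cannot be told apart.

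All 7 genes were more abundant after mtDNA, and since they were chosen with such results known, their count is a description. Each of the 7 passed edgeR's quasi-likelihood test at an adjusted p under 0.05 as higher, against a background of 11.9% of the 11190 tested genes called higher and 17.8% called in either direction. DESeq2 also called 7 of 7 higher (8.51% of its 10898 tested genes were higher, 1.69% lower and 10.2% either), as did edgeR's test against a fold of 1.2 (5.27% of all tested genes higher, 0.492% lower and 5.76% either). Of the 7 genes, 6 rose at least 2-fold, against 2.51% of all tested genes, and Sp140 was the exception. In all 7, the lowest mtDNA library stood above the highest blank library, against 17.9% of all tested genes. The median log2 fold change of the 7 was 1.73, against -0.01 over all tested genes. Their rises ranked between place 105, for Daxx, and place 337, for Sp140, among the 11190 tested genes ordered by fold change. Each was smaller than that of Isg15, a ubiquitin-like marker of the interferon response, whose log2 fold change was 4.28 ± 0.13 (SE). Ifnb1, the interferon beta gene, had 37 reads over the mtDNA libraries and 0 over the blank libraries.

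**Figure D1:**
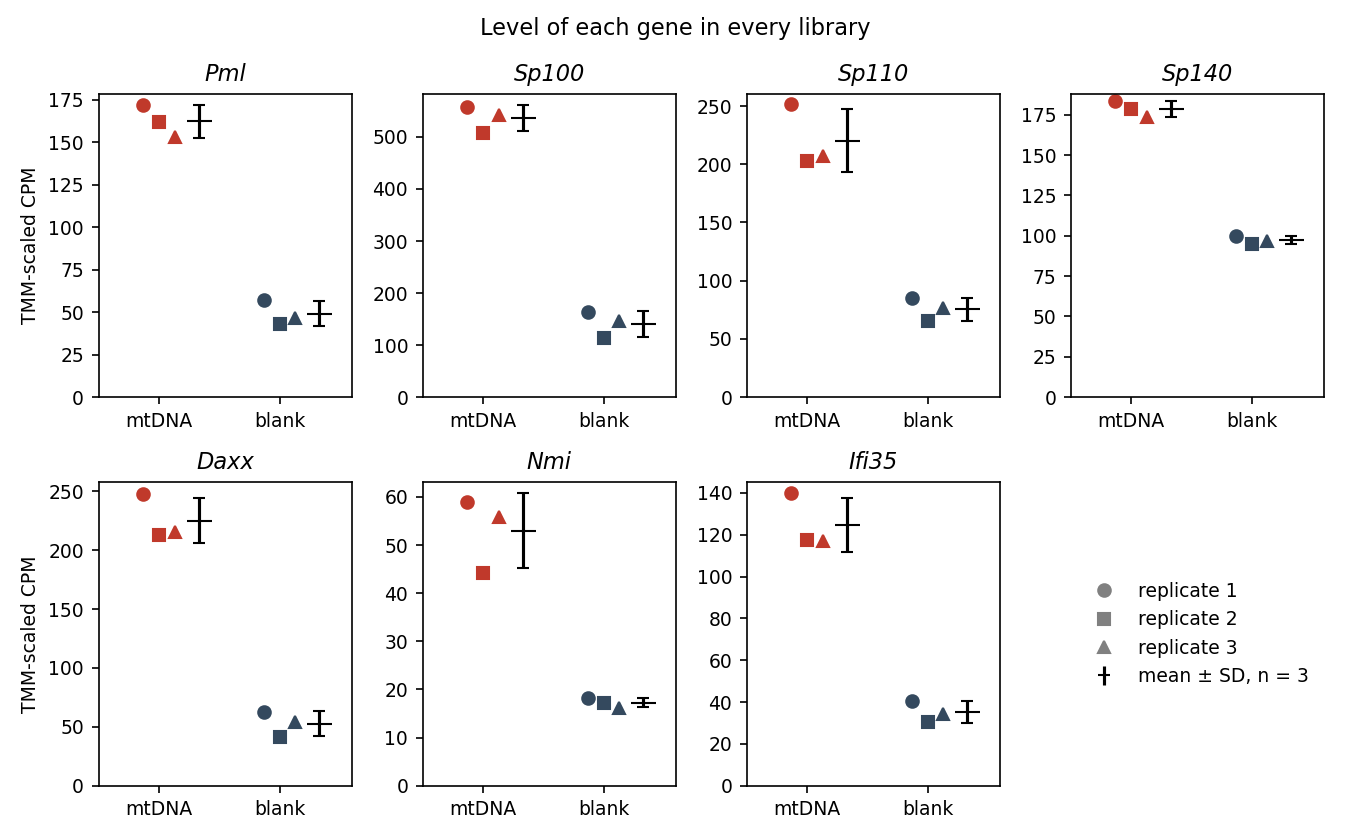
TMM-scaled CPM of each of the 7 genes in every library, mtDNA libraries at left and blank libraries at right of each panel; the bar is the mean and SD of 3 libraries. In every panel the mtDNA points lie above all blank points, and replicate 1 is the highest point of both groups.

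Pml (ENSMUSG00000036986) encodes the scaffold protein of the bodies. It had 172, 162 and 153 CPM in mtDNA libraries 1, 2 and 3, against 57.4, 43.1 and 46.8 CPM in blank libraries 1, 2 and 3. The groups did not overlap, and the lowest mtDNA library was 2.66-fold above the highest blank one. The means were 162 ± 9.61 CPM with mtDNA and 49.1 ± 7.46 CPM in blank cells (SD, n = 3 each), or 1.73 ± 0.084 (SE) as a log2 fold change, with an edgeR adjusted p = 3.58e-13. None of the 75-base windows of its longest transcript occurs in an annotated transcript of another gene; copies with mismatches were not searched.

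Sp100 (ENSMUSG00000026222), which encodes a body component that binds the heterochromatin protein HP1, was the most counted of the 7 genes. Its reads numbered 7116 over the mtDNA libraries and 1866 over the blank libraries. It stood at 558, 508 and 542 CPM in mtDNA libraries 1 to 3, against 163, 113 and 145 CPM in blank libraries 1 to 3. Every mtDNA library was above every blank library, and among the blank ones library 2 was clearly the lowest. The log2 fold change was 1.94 ± 0.083 with its SE (edgeR adjusted p = 5.53e-14), a 3.83-fold rise. Of its 75-base windows 5.76% are shared with other genes, 4.69% with the pseudogene Gm7582, which had 2 reads over the mtDNA libraries and 0 over the blank libraries.

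Sp110 (ENSMUSG00000070034) encodes a nuclear body protein first described in mice as a candidate gene of resistance to intracellular bacteria. Its level was 251, 203 and 207 CPM in mtDNA libraries 1 to 3 and 85.2, 65.1 and 76.2 CPM in blank libraries 1 to 3. The mtDNA libraries were all higher, with library 1 above the other two, and the log2 fold change was 1.55 ± 0.088 with its SE (edgeR adjusted p = 5.82e-12). Its count is less certain than that of Pml, because 39.2% of its windows are shared, 37% with the pseudogene Gm16026 alone. Counting as STAR does it leaves out reads that map to several places, and Gm16026 itself had 3 reads with mtDNA and 4 in blank cells.

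Sp140 (ENSMUSG00000070031) encodes a chromatin reader of immune cells that in mice is known to hold back type I interferon. It had the smallest rise of the 7 and the tightest libraries, with 184, 178 and 173 CPM in mtDNA libraries 1 to 3 against 99.8, 95.2 and 96.9 CPM in blank libraries 1 to 3. The groups were apart, the lowest mtDNA library being 1.74-fold above the highest blank library. Means of 179 ± 5.18 CPM with mtDNA and 97.3 ± 2.35 CPM in blank cells (SD, n = 3 each) gave 0.87 ± 0.059 (SE) as a log2 fold change, with an edgeR adjusted p = 1.25e-10. Of its windows 48.9% are shared with other genes, the highest share of the 7. The genes that share them include the neighbouring genes C130026I21Rik (13.4% of the windows) and A530032D15Rik (12.5%), and transcripts of Arhgef12 on the opposite strand (18.1%). The antisense gene Gm17017 overlaps 26.35% of the exon bases of Sp140, and the strand setting of the counts is not given. Gm17017 had 3 reads over the mtDNA libraries and 0 over the blank libraries. Arhgef12 itself was not called, at log2 -0.33 ± 0.16 (edgeR adjusted p = 0.17).

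Daxx (ENSMUSG00000002307), the chaperone that deposits histone H3.3 together with ATRX and is drawn to the bodies by SUMO, had the largest rise of the 7. Its values were 248, 213 and 215 CPM in mtDNA libraries 1 to 3 and 62.9, 41.3 and 54.0 CPM in blank libraries 1 to 3. The lowest mtDNA library exceeded the highest blank one 3.38-fold, the widest gap among the 7 genes. With means of 225 ± 19.5 CPM in mtDNA cells and 52.7 ± 10.8 CPM in blank cells (SD, n = 3 each), the log2 fold change was 2.10 ± 0.097 with its SE (edgeR adjusted p = 1.52e-13), or 4.30-fold. Daxx shares none of its windows with another gene.

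Nmi (ENSMUSG00000026946) encodes a protein named for binding N-Myc and STAT factors, and it was the least counted member, with 701 reads over the mtDNA libraries and 231 over the blank libraries. It had 59.0, 44.1 and 55.9 CPM in mtDNA libraries 1 to 3, against 18.1, 17.2 and 16.2 CPM in blank libraries 1 to 3. Library 2 was the low one among mtDNA libraries but remained far above the blank libraries. The log2 fold change was 1.62 ± 0.12 with its SE (edgeR adjusted p = 7.99e-10). Its partner Ifi35 (ENSMUSG00000010358) had 140, 117 and 117 CPM in mtDNA libraries 1 to 3, against 40.7, 30.7 and 34.1 CPM in blank libraries 1 to 3. Again no libraries overlapped, and the log2 fold change of 1.83 ± 0.095 with its SE (edgeR adjusted p = 1.26e-12) corresponds to a 3.55-fold rise. The antisense gene Gm11626 overlaps 16.8% of the exon bases of Ifi35. It had 4 reads with mtDNA and 0 in blank cells, and the strand setting of the counts is not given.

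**Figure D2:**
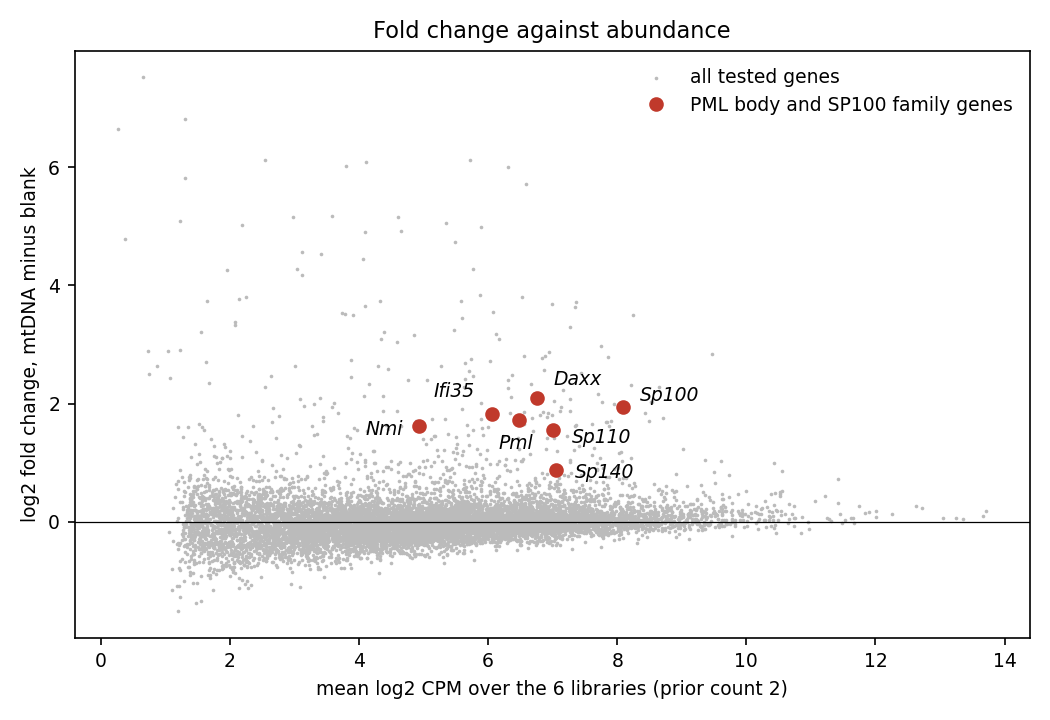
Log2 fold change (mtDNA minus blank) of each of the 11190 tested genes against its mean log2 CPM over the 6 libraries, with the 7 genes marked. Daxx (2.10) and Sp100 (1.94) are the highest of the marked points and Sp140 (0.87) the lowest.

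Within each group the same library had the highest level of all 7 genes. In the mtDNA group library 1 was the highest for 7 of 7 genes, whereas it was the highest for 35.9% of all tested genes. In the blank group library 1 was also the highest for 7 of 7, against 35.2% of all tested genes, and library 2 the lowest for 6 of 7, against 35.5% of all tested genes, Nmi being the exception. The same counts were found when CPM were computed from library totals alone. Isg15 was likewise highest in library 1 of each group, with 277 CPM in mtDNA library 1 against 227 and 211 CPM in mtDNA libraries 2 and 3, and with 16.9 CPM in blank library 1 against 9.22 and 10.98 CPM in blank libraries 2 and 3. The titles of mtDNA library 1 and blank library 1 carry neighbouring numbers. What these libraries share was not tested.

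The rises were of unequal size, from 1.83-fold for Sp140 to 4.30-fold for Daxx, and the exact permutation test used for the ratios between genes cannot go below p = 0.1 with 3 libraries a group. The ratio of the counts of a pair of genes within a library does not depend on the scaling between libraries, and it was computed for all 21 pairs. For 16 pairs the 3 mtDNA ratios lay outside the range of the 3 blank ratios, and for 5 pairs they overlapped; over all pairs of tested genes with a read in every library, 33.1% did not overlap. The log2 ratio of Daxx to Sp140 was 0.43, 0.25 and 0.31 in mtDNA libraries 1 to 3 and -0.67, -1.21 and -0.85 in blank libraries 1 to 3, so that Daxx had more reads than Sp140 in every mtDNA library and fewer in every blank library. The difference of the group means was 1.24 on the log2 scale (two-sided exact permutation p = 0.1, which is the minimum for 3 against 3 libraries; 0.131 after Benjamini-Hochberg adjustment over the 21 pairs). Between Sp100 and Sp140 the difference was 1.07, and between Sp110 and Sp140, the smallest with Sp140, it was 0.67, each with the same exact permutation p = 0.1. All 6 ratios to Sp140 were higher in every mtDNA library than in any blank library.

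**Figure D3:**
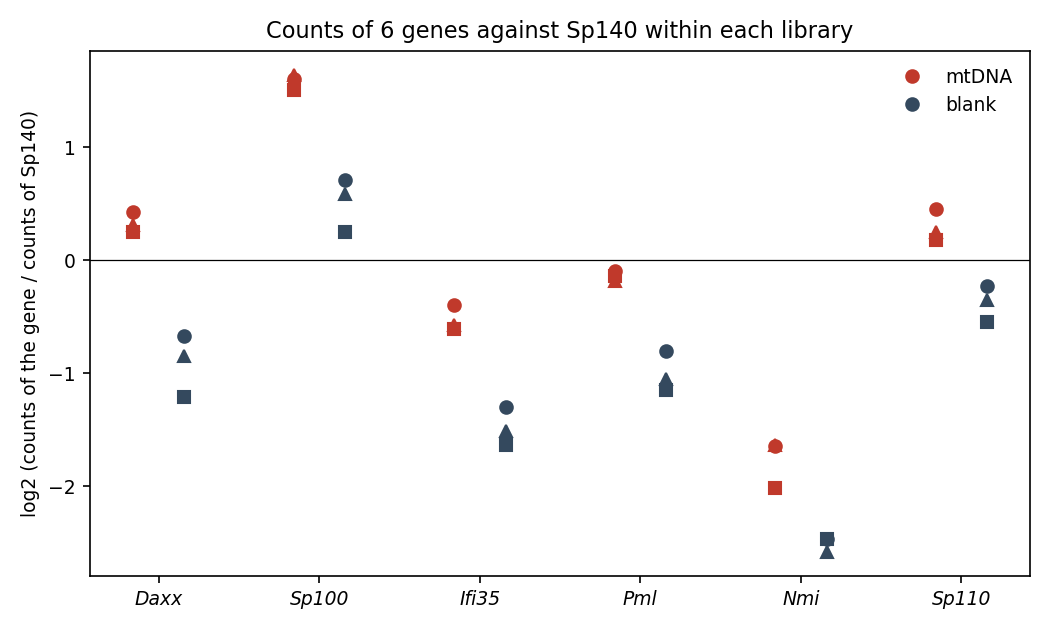
Log2 ratio of the counts of 6 genes to the counts of Sp140 in the same library, mtDNA libraries at left and blank libraries at right for each gene; symbols mark replicates 1 (circle), 2 (square) and 3 (triangle). For each gene the 3 mtDNA points lie above the 3 blank points, with the widest difference of means for Daxx (1.24).

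The pairs that overlapped were Sp100 with Ifi35, Ifi35 with Pml, and Nmi with each of Ifi35, Pml and Sp110. For Nmi and its partner Ifi35 the log2 ratio of Ifi35 to Nmi averaged 1.24 ± 0.17 in mtDNA libraries and 1.02 ± 0.17 in blank libraries (SD, n = 3 each), a difference of 0.22 (exact two-sided permutation p = 0.3). For Ifi35 and Pml it was 0.10 (exact permutation p = 0.2). With 3 libraries a group these values do not show that the genes rose alike.

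Per kilobase of all annotated exons, the order of the mean levels differed between mtDNA cells and blank cells. A level per kb depends on the length chosen, and the levels of Sp140 and Sp110 also on how reads from their shared windows were counted, so the order between genes is approximate. Ifi35 (72.2 ± 7.58 CPM per kb), Daxx (71.5 ± 6.17) and Sp100 (70.9 ± 3.32) came first with mtDNA, and neighbours in this order overlapped between libraries. Sp140 followed at 53.6 ± 1.56 CPM per kb, apart from both Sp100 above it and Sp110 below it. Sp110 (32.5 ± 3.98), Pml (29.1 ± 1.72) and Nmi (26.5 ± 3.93 CPM per kb) were lowest, each overlapping with the next. Blank cells had another order: Sp140 was first at 29.2 ± 0.705 CPM per kb, above all blank libraries of the next gene, Ifi35 (20.4 ± 2.96). Then came Sp100 (18.6 ± 3.36), Daxx (16.7 ± 3.44), Sp110 (11.1 ± 1.48), Pml (8.81 ± 1.34) and Nmi (8.59 ± 0.473 CPM per kb), and only Daxx and Sp110 were apart among these neighbours (all ± are SD, n = 3).

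Sp140 thus made up 15.1% ± 0.795 of the summed level per kb of the 7 genes in mtDNA cells, against 26.0% ± 2.45 in blank cells (SD, n = 3 each). The share of Daxx was 20.04% ± 0.298 with mtDNA and 14.6% ± 1.40 in blank cells. Pml made up 8.19% ± 0.363 in mtDNA cells and 7.75% ± 0.344 in blank cells, and its groups overlapped. These shares depend on the length used. Per kilobase of the longest transcript, Sp100 was first with mtDNA at 141 ± 6.58 CPM per kb and Pml last at 36.2 ± 2.14. Sp140 was still first in blank cells, at 40.3 ± 0.971 CPM per kb, but overlapped with Sp100 (36.9 ± 6.68).

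**Figure D4:**
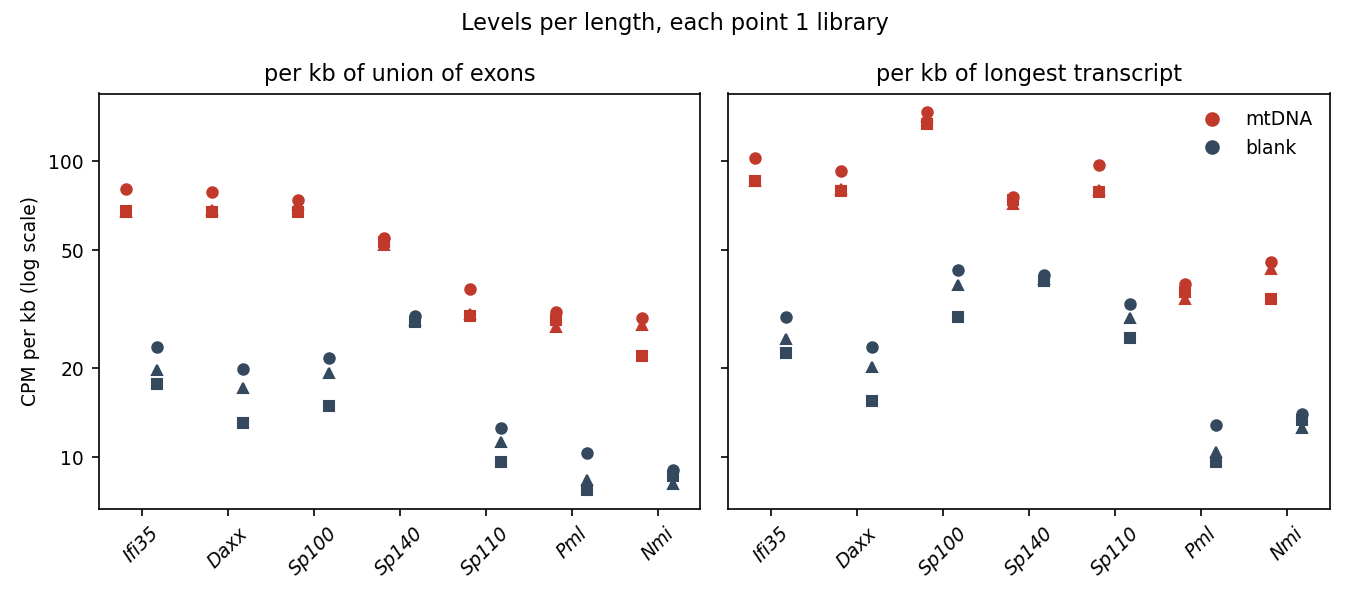
Level per length of the 7 genes on a log axis, per kb of all annotated exons (left) and of the longest transcript (right); each point is 1 library, mtDNA at left and blank at right of each gene. Sp140 has the highest mean in blank cells in both panels, though its libraries overlap with those of Sp100 per kb of longest transcript, while in mtDNA cells Ifi35, Daxx and Sp100 are level per kb of exon and Sp100 is highest per kb of longest transcript.

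Sp110, Sp140 and Sp100 lie side by side on chromosome 1. RefSeq promoter sequences (GRCm38.p6) were found for all 7 genes and are shown where they hold letters that factors of the interferon response are known to recognise. The core of the interferon-stimulated response element was searched as GAAA, 2 free bases (NN) and GAAA on both strands, from 250 bases before to 50 bases after each annotated start, and 0 of the 7 genes had it, against 3.44% of 32851 such windows. The shorter letters AANNGAAA, chosen after the promoters were seen, were found in 5 of the 7 genes, but also in 23.9% of all windows. Here and below, the members are counted per gene and the shares are per window, so they are not like for like. A gene counted as matched if any of its windows matched: Daxx had 3, Sp100 and Sp110 had 2 each, and the others 1. Both Sp100 windows hold the same matches. Sp100 and Sp110 each hold a pair of overlapping matches on the strand opposite to the gene. Together these hold GAAA, 3 free bases (NNN) and GAAA, also searched after the promoters were seen, which was found in 2.75% of all windows and in none of the other members. The 30-base stretches around the matches read 5′ to 3′ on the gene's strand, with the matched bases in capitals, as follows.
Sp100, chr1:85649933-85649962, + strand: agaattacTTTCGTTTTTCTTTTccccatc
Sp110, chr1:85598780-85598809, − strand: gagatcacTTTCATTTTTCTTTTcttgaag
Ifi35, chr11:101448415-101448444, + strand: agaattcacagAAATGAAAgtggaagtgag
Pml, chr9:58249842-58249871, − strand: gctccctagtcTTTCTCTTaactttggaag
Nmi, chr2:51973364-51973393, − strand: atttttctagcAAAGGAAAagttcacatct

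The Sp100 and Sp110 stretches are identical at 20 of the 30 aligned bases. Both stretches were centred on the matched letters, which were chosen after the promoters were seen, so part of this identity follows from that choice. They lie from base -55 to -26 relative to the first listed start of Sp100 and from base 2 to 31 relative to the second of the 2 listed starts of Sp110. For the most counted member the 150 bases before the start (chr1:85649838-85649987, + strand) show where the match stands, in capitals, relative to the start that follows the last base.
Sp100 promoter: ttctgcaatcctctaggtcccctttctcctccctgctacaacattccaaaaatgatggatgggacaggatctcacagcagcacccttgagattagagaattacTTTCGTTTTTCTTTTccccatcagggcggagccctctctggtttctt

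Neither Sp140 nor Daxx, the members with the smallest and the largest rise, had any of these letters in their windows. The STAT element TTCNNNGAA was found in Ifi35 alone (8.3% of all windows), and the NF-kB core (GGGA, 4 free bases and CC) in Pml alone (20.7% of all windows). A match is a description of the letters and not evidence of binding, and a window without a match says nothing of the factor.

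The genes next to the SP100 cluster allowed a local comparison. Of the 5 tested genes on either side, 3 of 10 were called higher, against 11.9% of all tested genes, and all 3 lie on the side of Sp110. They are the family relatives C130026I21Rik and A530032D15Rik, and A530040E14Rik, which is annotated as an antisense gene. A530040E14Rik had 18, 13 and 14 reads in mtDNA libraries 1 to 3 against 4, 3 and 0 in blank libraries 1 to 3, so it passed the filter on low counts through the mtDNA libraries. C130026I21Rik had 12.9 ± 0.400 CPM in mtDNA cells against 7.77 ± 1.02 CPM in blank cells (log2 0.73 ± 0.17, edgeR adjusted p = 0.00427; DESeq2 adjusted p = 0.0718). A530032D15Rik had 7.24 ± 1.48 CPM against 2.78 ± 0.352 CPM (log2 1.37 ± 0.27, edgeR adjusted p = 0.000687). Their transcripts share 32.9% and 24.1% of their windows with other genes, Sp140 among them, so their values are uncertain. On the other side Cab39 had 191 ± 8.09 CPM in mtDNA cells and 182 ± 5.37 CPM in blank cells (log2 0.07 ± 0.057, edgeR adjusted p = 0.463), and Psmd1, a proteasome subunit, had log2 -0.07 ± 0.064 (edgeR adjusted p = 0.533).

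Genes related to the members were counted in 8 lists. Over the lists together 42 of 151 tested genes were called higher and 11 lower, and the median of their log2 fold changes was 0.05, against 11.9% called higher and 5.98% called lower of all tested genes. Some of the 42 passed the filter on low counts through the mtDNA libraries. With at least 1 CPM required in all 6 libraries, 38 list genes were higher and 11 lower. The machinery that attaches and removes SUMO, on which the bodies depend, had 1 of 22 tested genes higher and 2 lower (median log2 0.01). The gene that rose was Ranbp2, a SUMO ligase of the nuclear pore, with 282 ± 8.21 CPM in mtDNA cells and 191 ± 24.6 CPM in blank cells (log2 0.57 ± 0.070, edgeR adjusted p = 2.43e-06). Trim28, a corepressor with SUMO ligase activity, fell to 111 ± 5.04 CPM in mtDNA cells, against 145 ± 6.16 CPM in blank cells (edgeR adjusted p = 7.16e-05), and the other fall was that of Sae1, a subunit of the SUMO-activating enzyme (edgeR adjusted p = 0.048). Sae1 missed the threshold in 9 of 16 alternatives, DESeq2 among them (adjusted p = 0.24).

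Among 31 tested partners and regulators of PML, 4 were higher and 1 lower (median 0.03). Of all tested genes, 11.9% were called higher and 5.98% lower. Isg20, an interferon-induced exonuclease that is found in PML bodies, rose to 62.1 ± 11.4 CPM with mtDNA, against 6.65 ± 0.977 CPM in blank cells (log2 3.21 ± 0.16, edgeR adjusted p = 5.97e-13). Morc3, an ATPase that also gathers in the bodies, had 151 ± 5.87 CPM with mtDNA and 90.0 ± 9.39 CPM in blank cells (log2 0.75 ± 0.071, edgeR adjusted p = 3.79e-08). The other two rises were those of Mdm2, whose protein targets p53 for degradation (log2 0.20 ± 0.058, edgeR adjusted p = 0.0185), and of the acetyltransferase gene Ep300 (log2 0.22 ± 0.061, edgeR adjusted p = 0.0131). Both calls ended when single libraries were left out and under other scalings.

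Of 18 tested H3.3 chaperone and heterochromatin genes 1 was higher and 3 lower (median -0.02). The shares over all tested genes were 11.9% higher and 5.98% lower. Atrx, the partner of Daxx, had 128 ± 34.9 CPM in mtDNA cells and 151 ± 21.8 CPM in blank cells, with overlapping libraries (edgeR adjusted p = 0.244). H3f3b, which encodes histone H3.3, rose by log2 0.38 ± 0.047 (edgeR adjusted p = 2.12e-06), while H3f3a, the other gene of this histone, had log2 0.02 ± 0.057 (edgeR adjusted p = 0.882). Chaf1a, a subunit of the replication-coupled chromatin assembly factor, had 36.9 ± 2.48 CPM with mtDNA and 51.5 ± 3.67 CPM in blank cells (edgeR adjusted p = 0.000619). Asf1b, a histone H3 and H4 chaperone, had 33.03 ± 3.82 CPM against 47.0 ± 1.54 CPM (edgeR adjusted p = 0.000751). The third fall was that of Cbx5, which encodes HP1 alpha (log2 -0.24, edgeR adjusted p = 0.0394; DESeq2 adjusted p = 0.199). In the death signalling list around DAXX 3 of 10 tested genes were higher and 1 lower, against 11.9% higher and 5.98% lower of all tested genes. DESeq2 called 1 gene of this list higher and 0 lower, and edgeR without mtDNA library 2 called 1 higher and 1 lower. Casp8, the initiator caspase of death receptors, had 216 ± 14.7 CPM with mtDNA and 154 ± 6.54 CPM in blank cells (log2 0.48 ± 0.061, edgeR adjusted p = 3.5e-06), and Fas had log2 0.05 ± 0.087 (edgeR adjusted p = 0.768).

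**Figure D5:**
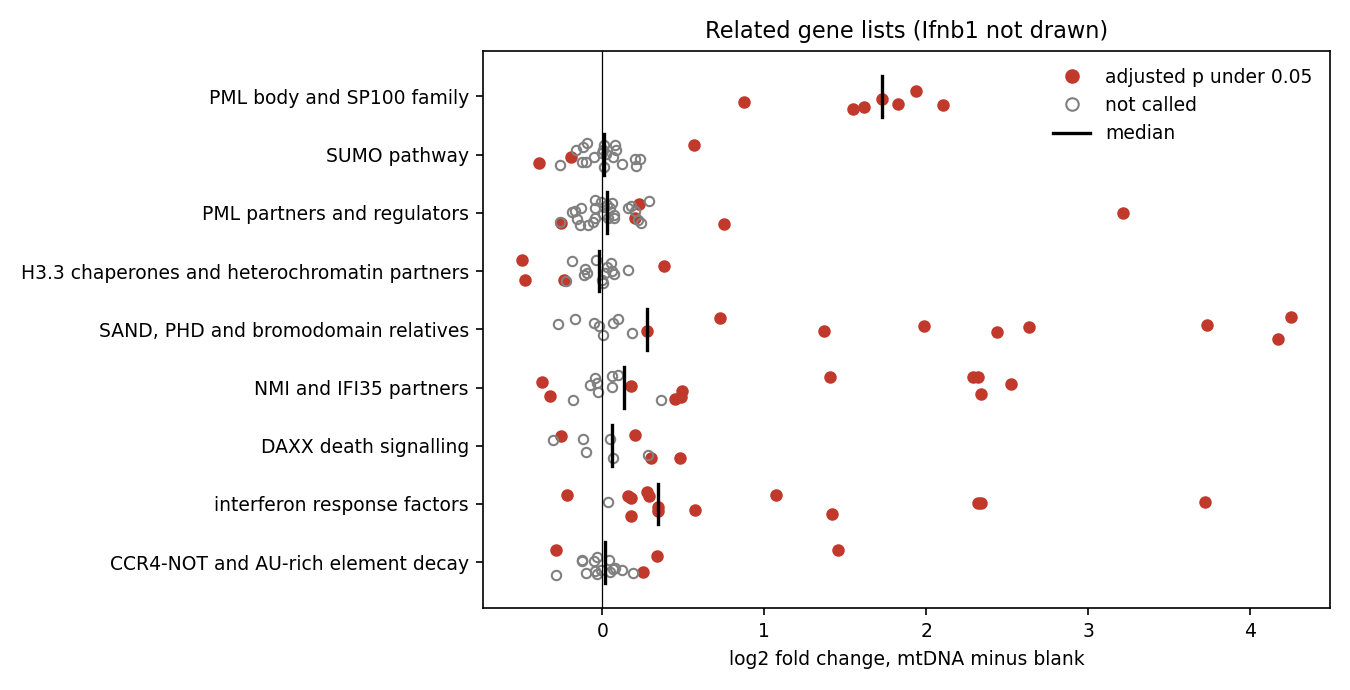
Log2 fold change (mtDNA minus blank) of the 7 genes and of the tested genes of 8 related lists, filled where the edgeR adjusted p was under 0.05; the bar is the median of the row, and Ifnb1 counts in the median but is not drawn. The 7 genes have a median of 1.73, and the SUMO, PML partner and H3.3 lists have medians between -0.02 and 0.03.

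Relatives with SAND, PHD or bromodomains were higher in 9 of 17 tested genes and lower in 0 (median 0.27). Of the 9, 7 rose at least 2-fold. Over all tested genes 11.9% were higher, 5.98% lower and 2.51% higher by at least 2-fold. With at least 1 CPM required in all 6 libraries the list had 14 tested genes, 6 higher, 4 of them at least 2-fold, and a median of 0.14: Phf11a, A530040E14Rik and Gm15753, each with 7 to 9 reads over the blank libraries, passed the filter on low counts through the mtDNA libraries. The 7 that rose at least 2-fold were the 4 Phf11 genes, which encode PHD finger proteins, and A530032D15Rik, A530040E14Rik and Gm15753. Of these, A530040E14Rik is annotated as an antisense gene, and Gm15753 is a pseudogene that shares windows with Sp110. Phf11b had 71.4 ± 17.2 CPM with mtDNA and 5.34 ± 1.5 CPM in blank cells (log2 3.73 ± 0.19, edgeR adjusted p = 1.14e-12). Phf11d had 34.3 ± 5.24 CPM against 1.91 ± 1.05 CPM (log2 4.17 ± 0.23, edgeR adjusted p = 3.9e-12). The Phf11 genes share 7.83% to 26.8% of their windows with other genes, and the gene each shares most with is another Phf11 gene, so their single values are uncertain. Aire, the best-known SAND domain relative, had 0 reads in all 6 libraries. Of the genes not called, Deaf1, which shares the SAND domain, had log2 -0.05 ± 0.13 (edgeR adjusted p = 0.846), and Gmeb1 had log2 -0.27 ± 0.14 (edgeR adjusted p = 0.186).

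Binding partners of NMI and IFI35 were higher in 9 of 20 tested genes and lower in 2 (median 0.13). For this list and the next, the shares over all tested genes were 11.9% higher and 5.98% lower. Ddx58, the RNA sensor RIG-I, had 421 ± 29.6 CPM in mtDNA cells and 73.7 ± 23.2 CPM in blank cells (log2 2.53 ± 0.12, edgeR adjusted p = 1.68e-13). Cebpa, a factor of myeloid differentiation, fell to 112 ± 5.17 CPM in mtDNA cells, against 140 ± 16.2 CPM in blank cells (edgeR adjusted p = 0.0034). Among 15 interferon response factors and receptors 13 were higher and 1 lower (median 0.34). Irf1 rose by log2 1.42 ± 0.063 (edgeR adjusted p = 1.07e-13), within the range of the 7 genes.

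The list of CCR4-NOT and AU-rich element decay genes was included because mouse SP140 is known to act on the stability of interferon beta mRNA. It had 4 of 20 tested genes higher and 1 lower (median 0.02), against 11.9% higher and 5.98% lower of all tested genes. One of the 4 was Ifnb1, a target of such decay and not a decay gene, which passed the filter on low counts only through the mtDNA libraries. With at least 1 CPM required in all 6 libraries 3 of 19 were higher and 1 lower, and the median was -0.01. The smallest p in the list was that of Gm21188, a predicted gene and not a named decay factor. It had 59.1 ± 5.47 CPM with mtDNA and 21.9 ± 6.52 CPM in blank cells (log2 1.45 ± 0.14, edgeR adjusted p = 3.71e-08). Gm21188 shares 18.5% of its windows with other genes, and the related Gm36079 had 0 reads in all 6 libraries. Zfp36, which encodes the RNA-binding protein tristetraprolin, rose by log2 0.34 ± 0.053 (edgeR adjusted p = 5.87e-05).

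For each member the genes most like it over the 6 libraries were taken as those with the smallest Euclidean distance between log2 CPM profiles, each centred on its own mean, among 9724 other genes with at least 5 CPM on average. For Pml they were Ifitm3 and Parp10 (distances 0.15 and 0.15), and for Sp100 Tor3a and Dtx3l (0.13 and 0.14). Sp110 was nearest to Parp11 and Slc25a22 (0.14 and 0.14), and Daxx to Lgals3bp and Znfx1 (0.10 and 0.16). Ifi35 was nearest to Rasa4 and Uba7 (0.11 and 0.12), and Nmi to Slc25a22 and Fgl2 (0.23 and 0.26). Sp140 stood apart from the other members and was nearest to Axl and Cd180 (0.081 and 0.086), with log2 fold changes of 0.90 and 0.89. Within the family the closest pair was Pml with Ifi35 (0.16) and the most distant Sp140 with Daxx (1.56). A distance over 6 libraries in 2 groups is set mainly by the size of the fold change.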

How the data were processed

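The 6 libraries (3 mtDNA, 3 blank) hold poly(A) RNA read in single-end reads with a directional kit, per the labels. The authors deposited raw counts of reads for each gene. STAR 2.7.10a, FastQC, DESeq2 and GRCm39 appear in the submitters' processing notes, and STAR's gene count output is named in the file headers. Strand setting and annotation release: not given in the sources used here. GENCODE M21 (GRCm38) named 52083 of 55359 gene IDs and gave lengths and transcripts, and RefSeq (GRCm38.p6) gave the promoters.

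Treatment labels set the groups. The main test was edgeR 4.0.16 (R 4.3.3) with its default filter, TMM and two-sided quasi-likelihood test, adjusted by Benjamini-Hochberg over 11190 genes at 0.05. An SE is the fold change over the root of the test statistic. Members and lists were chosen with earlier results of these data known. The rule for named genes took all members, up to 2 list genes with the smallest p in each direction, the 2 genes most like each member, copies that share at least 10% of windows, Ifnb1 and Isg15; some that it picked are left out. Mdm2, Ep300, Cbx5, Gm15753, Zfp36, Atrx, H3f3a, Fas, Deaf1, Gmeb1, Aire, Gm36079, Cab39, Psmd1 and A530040E14Rik were chosen after their values were seen. Alternatives were other scalings, filters and tests (DESeq2 1.42.0, limma-voom 3.58.1), a block and omission of each library. Every pair of libraries in a group exceeded sampling noise (chi-square over its degrees of freedom 1.54 to 2.28). On simulated data (50 genes changed per fold) edgeR recovered 34% of 1.2-fold, 76% of 1.5-fold, 90% of 2-fold and 98% of 4-fold changes. DESeq2 recovered 18% of 1.2-fold and 58% of 1.5-fold changes. Small changes can therefore go uncalled. Fewer genes were changed in the simulation than were called in the data.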

Additional observations from a re-analysis of the deposited data

How the results depend on the processing

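Each of the 7 members stayed higher and past the threshold in all 16 alternatives. Their log2 fold changes ranged from 1.61 to 1.85 for Pml, 1.80 to 2.06 for Sp100, 1.43 to 1.64 for Sp110, 0.76 to 0.90 for Sp140, 1.94 to 2.25 for Daxx, 1.5 to 1.74 for Nmi and 1.71 to 1.94 for Ifi35, and the largest adjusted p was 0.000211, for Sp100 with robust dispersion. Counts of smaller changes depended on the setting. Called higher and lower over all genes were 1327 and 669; the lower count was 1504 with upper-quartile factors, and library totals alone gave 861 and 2356, DESeq2 927 and 184, and the test against a fold of 1.2 590 and 55. In the 8 lists the 11 lower genes became 21 with upper-quartile factors, 30 with library totals, 4 in DESeq2 and 0 against a fold of 1.2, where 27 stayed higher in place of 42. Leaving out a library gave 1097 to 1191 higher and 410 to 522 lower genes, and 35 to 39 higher and 5 to 11 lower list genes; the lowest counts of falls came without blank library 3 (410) and mtDNA library 1 (437) over all genes, and without mtDNA library 3 (5) in the lists. In DESeq2 the lists had 29 higher genes, and of the 53 list genes called by edgeR 17 were not called and 3 had no adjusted p. Interferon response factors had 10 or 11 higher genes in place of 13 without any 1 library. Among the list genes followed one by one, the calls of 9 ended in DESeq2 and without at least 1 library, in 4 to 9 of the 16 alternatives, and that of Ep300 ended without single libraries. Adjusted p-values without the library were, in edgeR: Sae1 (without mtDNA 1 0.133, mtDNA 2 0.0596, mtDNA 3 0.102, blank 2 0.0855, blank 3 0.188), Uhrf1 (without mtDNA 1 0.17, mtDNA 3 0.194, blank 2 0.158, blank 3 0.134), Brca1 (without mtDNA 1 0.117, mtDNA 3 0.0517, blank 3 0.137), Mapk9 (without mtDNA 2 0.0687), Park7 (without mtDNA 1 0.0678, mtDNA 3 0.0605, blank 2 0.0734), Ifngr1 (without mtDNA 3 0.0792, blank 2 0.0848, blank 3 0.0511), Tob1 (without mtDNA 3 0.0991, blank 1 0.0532, blank 2 0.0658), Mdm2 (without mtDNA 3 0.0887, blank 2 0.0597, blank 3 0.091), Cbx5 (without mtDNA 1 0.148, mtDNA 3 0.0654, blank 1 0.179, blank 3 0.0663), Ep300 (without mtDNA 2 0.0558, mtDNA 3 0.0596, blank 2 0.0876). The median of all genes was log2 -0.13 under library totals and -0.09 with upper-quartile factors, against -0.01 with TMM. Per kb of the longest transcript, levels in mtDNA and blank cells were 36.2 and 10.96 CPM per kb for Pml, 141 and 36.9 for Sp100, 85.3 and 29.2 for Sp110, 73.9 and 40.3 for Sp140, 84.2 and 19.7 for Daxx, 41.1 and 13.3 for Nmi, and 91.5 and 25.8 for Ifi35. With neighbouring title numbers as a replicate block, the members kept their calls (log2 1.73 for Pml, 1.94 for Sp100, 1.55 for Sp110, 0.88 for Sp140, 2.11 for Daxx, 1.61 for Nmi and 1.83 for Ifi35), with 1387 genes higher and 747 lower. Libraries with neighbouring numbers correlated in their deviations at only r = 0.040 to 0.045, the highest value for each library, which is a hint from the data and not the design. The causes of these shifts were not tested.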
